A study of Mus musculus with 10 samples.

Results

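MHC class II presentation was examined in mouse peritoneal macrophages as a fixed set of 9 genes: the class II chains H2-Aa, H2-Ab1 and H2-Eb1, the peptide-exchange genes H2-DMa, H2-DMb1 and H2-DMb2, the invariant chain Cd74, and the transcriptional regulators Ciita and Rfx5. The genes were taken by symbol from the table of estimated read counts per gene. Of the 9 genes, 8 had a row among the 39488 rows of that table, of which 23382 carried an NCBI gene identifier. H2-DMb2 had no row, and its expression was not analysed here.

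Bulk RNA-seq was performed on macrophages taken from C57BL/6 mice of 8 weeks after thioglycollate had been used to draw cells into the peritoneal cavity. The 5 control libraries carry the label untreated, and the 5 ox-LDL libraries came from cells primed with LPS at 100 ng/ml, a bacterial product, and then given oxidized low-density lipoprotein (ox-LDL) at 100 µg/ml for 16 h. By the labels LPS was given to the ox-LDL group alone, so effects of LPS and of ox-LDL cannot be told apart. The study's own description leaves room for controls that had been given LPS too, in which case the differences would be those of ox-LDL alone, and which reading holds is not settled here. The labels do not tie libraries to single animals, and p-values measure the spread between these samples. Libraries held between 19257131 and 20687289 estimated counts. Levels are given as TMM CPM, which are counts scaled to a common library total (CPM) and corrected for library composition, and replicates are given in the order 1 to 5 as a name only.

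MHC class II molecules present peptides from endosomes to CD4+ T cells. The alpha and beta chains are held by the invariant chain until H2-DM exchanges its last fragment for a peptide. Transcription of these genes depends on CIITA, a coactivator that has no DNA-binding domain and sits on RFX, CREB and NF-Y bound at the X, X2 and Y boxes of the promoters. In macrophages, which are not constitutively high in class II, interferon gamma raises Ciita through JAK signaling and IRF1.

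Promoters of the set were searched for the core letters of these boxes, which not every gene held. The entries were RefSeq promoters (build GRCm38.p6), from 250 bases before to 50 after the transcript start. A stretch of 67 bases is printed for 4 of the 6 genes of the set that had an entry. Capitals mark an X box core (ACNGATG) and a Y box core (TGATTGG), and in H2-Aa a full CRE (TGACGTCA) where the printed stretch holds no X box core. All 4 are written 5′ to 3′ on the gene's own strand, H2-Aa at chr17:34287857-34287923 on the minus strand, H2-Eb1 at chr17:34305756-34305822, H2-DMb1 at chr17:34153078-34153144 and H2-DMb2 at chr17:34145107-34145173 on the plus strand.
H2-Aa: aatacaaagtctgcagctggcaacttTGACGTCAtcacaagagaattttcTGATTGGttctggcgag
H2-Eb1: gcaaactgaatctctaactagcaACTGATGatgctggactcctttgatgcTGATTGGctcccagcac
H2-DMb1: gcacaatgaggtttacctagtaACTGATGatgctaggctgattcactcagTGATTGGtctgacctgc
H2-DMb2: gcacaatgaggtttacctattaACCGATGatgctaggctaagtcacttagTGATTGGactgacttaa

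Counted from the transcript start, the first base of the Y core lay at -50 in H2-Aa, -61 in H2-Eb1, -63 in H2-DMb1 and -92 in H2-DMb2. In the sequences printed, the gap between the X and Y cores was 20 bases in H2-Eb1 and 21 in both H2-DMb genes. Searched on both strands of 32851 promoters, the X core letters were in 9.85%, the Y core letters in 7.82% and the CRE letters in 1.79%. An X core followed by a Y core on the same strand with 10 to 40 bases between them was found in 18 promoters of 18 genes, and H2-Eb1, H2-DMb1 and H2-DMb2 were among these 18. The H2-Aa window also held X core letters, on the opposite strand and outside the printed stretch. Neither entry of H2-DMa held any of these letters, and the Rfx5 entry held a Y core alone. These matches describe letters in a window. H2-Ab1, Ciita and Cd74 had no entry.

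Of the 8 genes measured, 2 rose in the ox-LDL group, and both were regulators. Ciita was 3.91-fold higher and Rfx5 2.23-fold higher. None of the 6 genes whose products bind, chaperone or exchange peptides passed the test in either direction, and H2-Ab1 came nearest. A gene was called at an adjusted p below 0.01 in edgeR's quasi-likelihood test with Benjamini-Hochberg adjustment over 12654 genes. Of these, 9.4% were called higher and 5.35% lower. In simulated data this test found 1 of 90 genes changed by 1 on the log2 scale. It found 57 of 110 changed by 2, so a gene not called may still have changed. The median log2 fold change of the 8 genes was 0.59 against 0.10 for all genes tested. The all-gene median was -0.09 when counts were scaled by library size alone and -0.05 with upper-quartile factors, so small changes are to be read against that shift.

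Ciita lies at chr16:10480237-10527657 on the plus strand (mm9, as are the other gene positions in the text). Its level was 1.55, 2.40, 1.58, 1.55 and 1.17 TMM CPM in the controls and 2.09, 6.85, 5.80, 9.81 and 7.82 TMM CPM in the ox-LDL libraries. Control replicate 2 lay above ox-LDL replicate 1, and the other 4 ox-LDL libraries lay above every control. The means were 1.65 ± 0.45 and 6.48 ± 2.86 TMM CPM (SD, n = 5 each). The log2 fold change was 1.97 (SE 0.38), with an adjusted p of 0.00257 by edgeR. These levels rested on 27 to 56 estimated counts per control library and 48 to 205 per ox-LDL library. The call held without any single library, with adjusted p between 0.000207 and 0.00905. It did not hold without control replicates 1 and 4 and ox-LDL replicate 2 together, with an adjusted p of 0.0316, a choice made after the data were seen.

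Rfx5, the DNA-binding subunit of the RFX complex, lies at chr3:94757997-94765483 on the plus strand. Its level was 5.03, 5.14, 5.43, 5.00 and 3.65 TMM CPM in the controls and 7.44, 7.62, 10.1, 12.1 and 16.8 TMM CPM in the ox-LDL libraries. Every ox-LDL library lay above every control, as did 11.6% of all genes tested, and 1 of the 8 genes of the set. The means were 4.85 ± 0.69 and 10.8 ± 3.85 TMM CPM (SD, n = 5 each). The log2 fold change was 1.16 (SE 0.25), with an adjusted p of 0.00511 by edgeR.

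The Rfx5 difference was closer to the threshold than that of Ciita. Leaving out any 1 control library, or ox-LDL replicate 3 or 4, gave adjusted p between 0.0118 and 0.0149, with log2 fold changes between 1.07 and 1.19. Whether the groups overlapped also depended on scaling. On the deposited FPKM scale, which carries no TMM factor, ox-LDL replicate 2 was at 1.69 among controls of 1.67 to 2.48, while the other 4 ox-LDL libraries were at 3.67 to 6.07. The TMM factor of that library was 0.59, the lowest of the 10.

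For the other proteins known to assemble on these promoters, no difference passed the test. The 9 genes were the RFX subunits Rfxank and Rfxap, the NF-Y subunits Nfya, Nfyb and Nfyc, Creb1, and the acetyltransferases Crebbp, Ep300 and Kat2b. By edgeR 0 of 9 were called in either direction, against 9.4% of all genes called higher and 5.35% lower. Their median log2 fold change was 0.09, close to the 0.10 of all genes. Rfxank had a log2 fold change of 0.55 (SE 0.31) and an adjusted p of 0.214. Rfxap, the remaining RFX subunit, had -0.13 (SE 0.18) and an adjusted p of 0.626.

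H2-Ab1 encodes the beta chain of I-A, the class II molecule of this strain, and lies at chr17:34400154-34406363 on the plus strand. Its level was 75.0, 56.5, 33.7, 99.4 and 40.5 TMM CPM in the controls. In the ox-LDL libraries it was 41.8, 358, 80.3, 101 and 279 TMM CPM. Ox-LDL replicates 2 and 5 lay far above all controls, replicate 4 just above the highest control, and replicates 1 and 3 among the controls. The means were 61.0 ± 26.7 and 172 ± 138 TMM CPM (SD, n = 5 each), 2.82-fold apart. On the log2 scale the difference was 1.49 (SE 0.54, 95% interval 0.31 to 2.68), and with an adjusted p of 0.0609 by edgeR the gene was not called. The direction was higher under all 25 alternatives, with adjusted p between 0.0152 and 0.188. Those that changed only the threshold of a call reused the same fit, so their direction could not differ.

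H2-Aa encodes the alpha chain that pairs with it and lies at chr17:34406276-34424772 on the minus strand. The control libraries were at 173, 114, 75.1, 201 and 73.4 TMM CPM, and the ox-LDL libraries at 44.8, 541, 74.8, 94.5 and 205 TMM CPM. Only ox-LDL replicates 2 and 5 exceeded the highest control, and replicate 1 was below every control. In FPKM, ox-LDL replicate 5 was at 183, below the highest control at 209. H2-Aa had a log2 fold change of 0.59 (SE 0.60, 95% interval -0.72 to 1.91), with an adjusted p of 0.51 by edgeR. It was -0.32 without ox-LDL replicate 2, so the direction rested on that library.

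The pair did not change in step. Within a library, H2-Aa had 2.31, 2.015, 2.23, 2.02 and 1.81 counts per H2-Ab1 count in the controls and 1.07, 1.51, 0.93, 0.93 and 0.74 in the ox-LDL libraries. Every ox-LDL library was below every control. A ratio within a library does not depend on scaling between libraries. The log2 ratio differed by -1.04, from 1.05 ± 0.14 to 0.01 ± 0.38 (SD, n = 5 each), in a two-sided exact permutation test with p = 0.007937, the smallest that 5 against 5 libraries can give, and 0.0198 after adjustment over 5 ratios. The annotated spans of H2-Aa and H2-Ab1 overlap by 88 bases on opposite strands, and whether the counting used strand is not given in the sources used here, so reads in that overlap are uncertain.

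**Figure D1:**
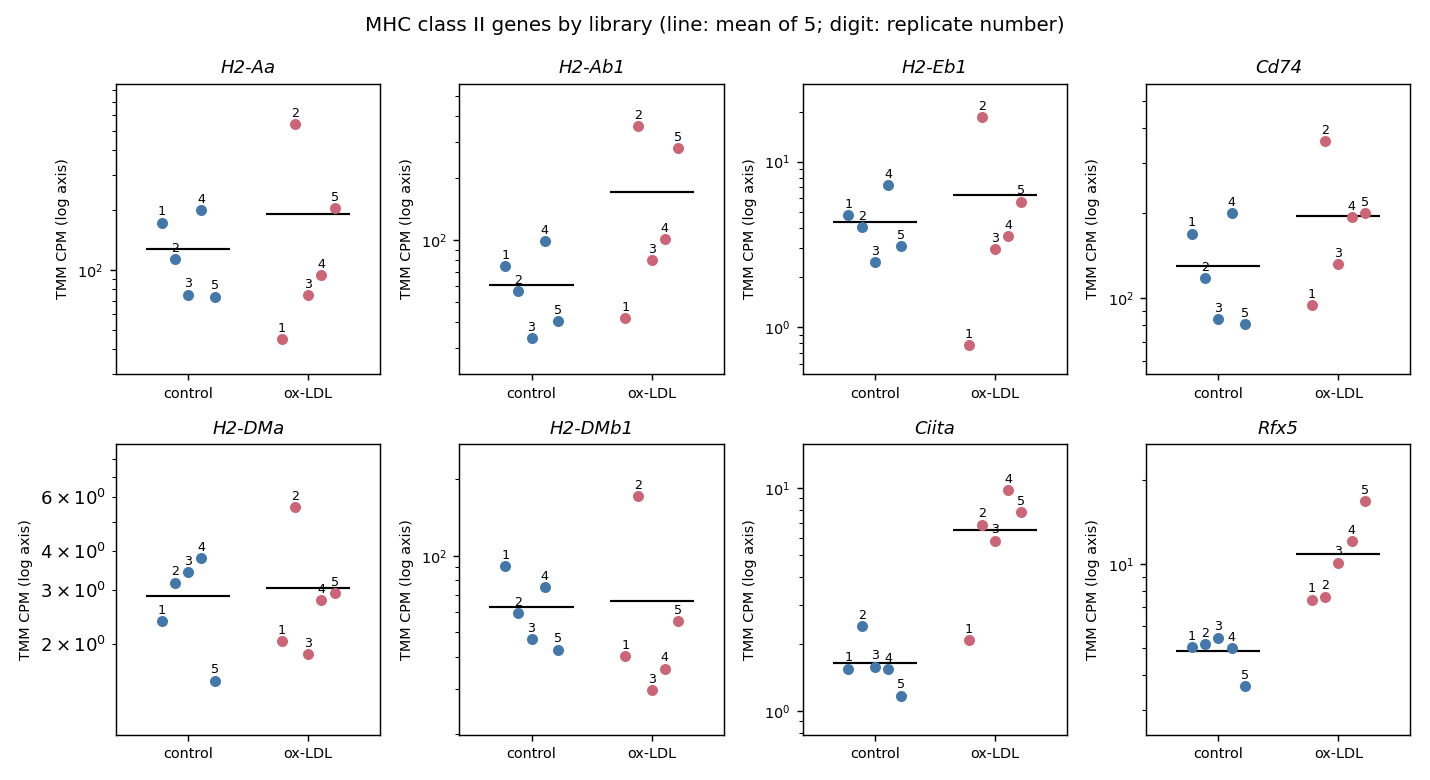
TMM CPM (log axis) of the 8 class II genes in the 5 control and 5 ox-LDL libraries, with a point for each library marked by its replicate number and a line at the mean of 5. Rfx5 has no overlap between the groups and Ciita has 1 ox-LDL library (2.09) below a control (2.40), while H2-Aa, H2-Eb1, H2-DMa and H2-DMb1 overlap widely, with ox-LDL replicate 2 the highest library in each.

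H2-Eb1 encodes the beta chain of I-E and lies at chr17:34442828-34453144 on the plus strand. Its level was 4.76, 4.02, 2.48, 7.21 and 3.08 TMM CPM in the controls and 0.78, 18.5, 2.98, 3.54 and 5.73 TMM CPM in the ox-LDL libraries. The ox-LDL group held both the lowest and the highest of the 10 libraries. H2-Eb1 had a log2 fold change of 0.53 (SE 0.64, 95% interval -0.87 to 1.93), with an adjusted p of 0.59 by edgeR, and it was -0.45 without ox-LDL replicate 2. The b haplotype carried by C57BL/6 mice does not express the partner alpha chain H2-Ea, which was listed at 0 in all 10 libraries. H2-Eb2, the neighbouring beta chain gene, had at most 3 counts in any library.

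Cd74, the invariant chain, lies at chr18:60963502-60972300 on the plus strand. The controls were at 169, 118, 83.9, 199 and 80.6 TMM CPM and the ox-LDL libraries at 94.6, 359, 132, 194 and 200 TMM CPM. The highest control lay within 1 unit of ox-LDL replicate 5, and only replicate 2 stood clear of the controls on this scale. In FPKM, ox-LDL replicates 2 and 4 were at 185 and 187, against 171 in the highest control. The log2 fold change was 0.59 (SE 0.37, 95% interval -0.22 to 1.402), with an adjusted p of 0.27 by edgeR. The ratio of Cd74 to H2-Ab1 within a library ranged from 1.99 to 2.49 in the controls and from 0.72 to 2.26 in the ox-LDL libraries, a log2 difference of -0.64 (two-sided exact permutation p = 0.0635, 0.0794 after adjustment). CD74 also serves as the receptor of the cytokine MIF. Of 4 tested genes of Cd74 partners only Mif was called, against 9.4% of all genes called higher. Mif had a log2 fold change of 1.66 (SE 0.32) and an adjusted p of 0.00266 by edgeR.

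H2-DM catalyses peptide exchange, and neither measured subunit differed beyond the spread between libraries. H2-DMb1 (chr17:34290017-34297168, plus strand) was at 90.9, 59.7, 47.2, 75.3 and 42.8 TMM CPM in the controls and at 40.4, 171, 29.8, 36.1 and 55.4 TMM CPM in the ox-LDL libraries. Outside ox-LDL replicate 2, the ox-LDL values reached no higher than the middle of the control values. H2-DMb1 had a log2 fold change of 0.07 (SE 0.45, 95% interval -0.92 to 1.06), with an adjusted p of 0.929 by edgeR. It was -0.69 without ox-LDL replicate 2, with an adjusted p of 0.046, and -0.31 with scaling by library size alone, so no direction can be given. H2-DMb2, whose annotated span ends 1518 bases before H2-DMb1 begins and whose promoter stretch resembles that of H2-DMb1, had no row, so reads of the 2 genes may not have been kept apart and a ratio of the pair could not be made.

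H2-DMa (chr17:34272127-34276046, plus strand) was at 2.38, 3.17, 3.42, 3.81 and 1.52 TMM CPM in the controls and at 2.04, 5.57, 1.85, 2.78 and 2.93 TMM CPM in the ox-LDL libraries. The groups overlapped, with only ox-LDL replicate 2 above the highest control on this scale. In FPKM, which carries no TMM factor, that library was at 1.26, below the highest control at 1.69. For H2-DMa the log2 fold change was 0.07 (SE 0.36, 95% interval -0.71 to 0.85), with an adjusted p of 0.911, and it was -0.21 with scaling by library size alone. The ratio of H2-DMa to H2-Ab1 ranged from 0.0322 to 0.102 in the controls and from 0.0106 to 0.0499 in the ox-LDL libraries, a log2 difference of -1.13 that did not pass after adjustment (two-sided exact permutation p = 0.0476, 0.0794 after adjustment).

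H2-O, the inhibitor of H2-DM, was near the floor of detection. H2-Oa had 3, 1, 2, 1 and 6 counts in the controls and 15, 49, 7, 20 and 13.1 in the ox-LDL libraries. Every ox-LDL library held more counts than every control. H2-Ob had 1 to 6 counts in the controls and 1 to 23 in the ox-LDL libraries, with overlap. Neither gene passed the filter on low counts, and neither was tested.

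Compared per length of transcript on the deposited FPKM scale, the class II genes spanned a wide range in the controls. H2-Aa had a median of 139 FPKM, Cd74 118, H2-Ab1 61.0 and H2-DMb1 59.4, followed by H2-Eb1 at 2.82, Rfx5 at 2.07, H2-DMa at 1.47 and Ciita at 0.25. Over the control libraries the ranges of neighbours in this order overlapped, as for H2-Aa (89.6 to 209) and Cd74 (81.1 to 171), except between H2-DMb1 (42.6 to 71.5) and H2-Eb1 (1.90 to 4.58) and between H2-DMa (0.73 to 1.69) and Ciita (0.24 to 0.49). Within every single control library, H2-Aa was above Cd74, Cd74 above H2-Ab1, and Rfx5 above H2-DMa. The order of the other overlapping neighbours varied between control libraries. In the ox-LDL libraries the medians were 146 FPKM for Cd74, 111 for H2-Aa, 105 for H2-Ab1 and 40.2 for H2-DMb1. Below these came Rfx5 at 3.88, H2-Eb1 at 2.53, and H2-DMa and Ciita at 1.06 each. Ciita ranged from 0.41 to 1.93 and H2-DMa from 0.48 to 1.26 in this group, so their order could not be told, and H2-DMb1 (27.5 to 86.8) and Rfx5 (1.69 to 6.07) were the only neighbours without overlap.

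The libraries also differed in how levels related to gene length. Each library was compared with the mean of its own group. In control replicates 1 and 4 and ox-LDL replicate 2, levels of short genes lay above that mean and those of long genes below it. Spearman correlations across genes of this deviation on gene length were -0.57, -0.46 and -0.65, against 0.06 to 0.51 in the other 7 libraries. H2-Aa, H2-Ab1, Cd74 and H2-DMb1, with lengths of 926, 1047, 1123 and 1136 bases as implied by counts and FPKM, were each highest in those 2 controls among the controls and in that library among the ox-LDL libraries. Ciita and Rfx5, at 5532 and 2498 bases, were not. The cause of the length trend was not tested.

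With each library's length trend taken off, the SD of log2 levels among controls fell from 0.67 to 0.44 for H2-Aa and from 0.45 to 0.26 for H2-DMb1. Among the ox-LDL libraries it fell from 1.402 to 0.93 and from 1.00 to 0.55. The fall was smaller for H2-Ab1 (1.29 to 1.01) and H2-Eb1 (1.62 to 1.47) in the ox-LDL libraries, and the SD of H2-DMa went up in the ox-LDL libraries (0.61 to 0.75) and in the controls (0.52 to 0.54). The log2 fold change of H2-Ab1 was then 1.51 with an adjusted p of 0.0152 and that of Cd74 0.66 with an adjusted p of 0.0528, so neither was called. Ciita (1.75, adjusted p 0.00483) and Rfx5 (1.16, adjusted p 0.0023) were called with and without this correction by edgeR.

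**Figure D2:**
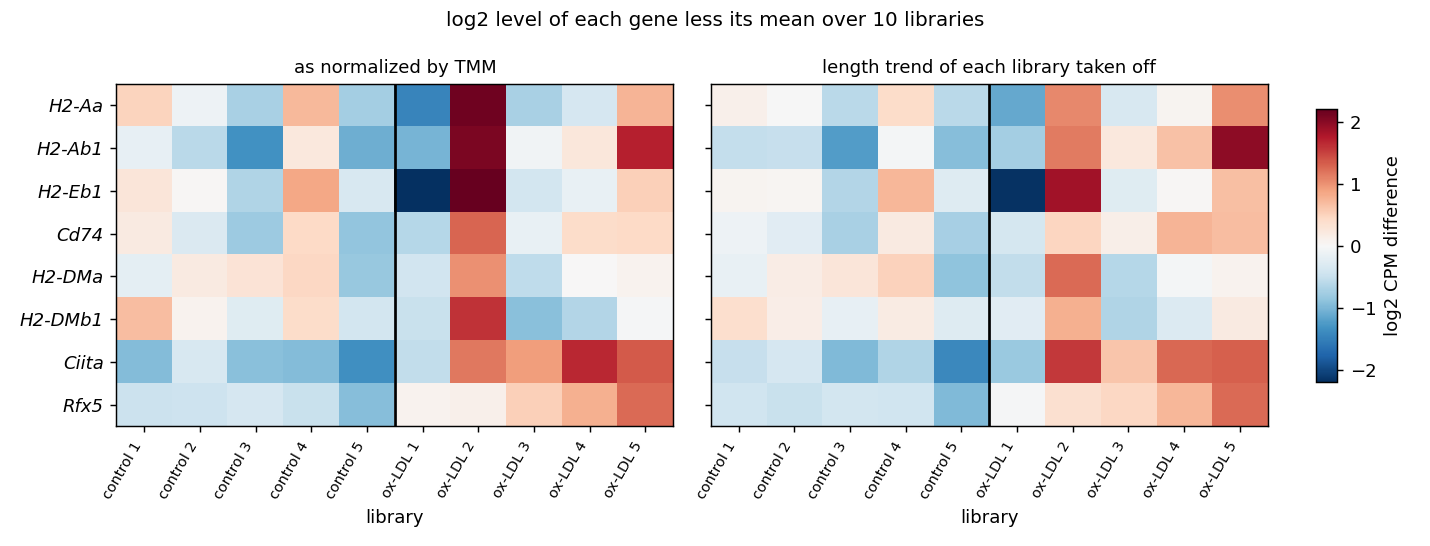
Heat map of the log2 level of each class II gene less its mean over 10 libraries, with TMM normalization on the left and with each library's trend on gene length taken off on the right. The black line parts control from ox-LDL libraries, and colours end at 2.2 either way, which H2-Eb1 passed in ox-LDL replicates 1 (-2.27) and 2 (2.21) on the left.

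H2-Ab1 varied with the other chain genes within the groups. Over the 10 libraries, with group means taken off, Pearson's r with H2-Ab1 was 0.966 for H2-Aa, 0.939 for H2-Eb1, 0.911 for Cd74, 0.786 for H2-DMb1 and 0.317 for Rfx5. H2-Aa ranked 4, H2-Eb1 21, Cd74 67, H2-DMb1 750 and Rfx5 3173 among 9215 genes with a mean of at least 5 CPM. The 10 other genes most like it were BGIG10090_44822 (0.979), an identifier with no paired symbol, Fbxo6 (0.971), Ppp2r2d (0.968), Csnk2b (0.966), Otub1 (0.963), Abt1 (0.960), Snx3 (0.960), Bub3 (0.958), Slc7a6os (0.956) and Ube2j2 (0.953). Without ox-LDL replicate 2 the r rose to 0.984 for H2-Aa, 0.954 for H2-Eb1 and 0.804 for Rfx5. It fell to 0.862 for Cd74 and 0.692 for H2-DMb1. These values describe 10 libraries that share the length trend above.

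Genes that carry the interferon gamma signal to Ciita moved in both directions. Of 8 genes examined on this route, 3 rose and 1 fell by edgeR, against 9.4% and 5.35% of all genes. Their median log2 fold change was 0.49. Irf1, which binds the interferon-responsive promoter of Ciita, went from 24.0 ± 5.03 to 625 ± 347 TMM CPM (SD, n = 5 each), and rose by 4.70 on the log2 scale (SE 0.41, adjusted p 2.1e-05). Jak2, the kinase bound to the receptor, rose by 1.64 on the log2 scale (SE 0.19, adjusted p 0.000112). Socs1, the feedback inhibitor of JAK signaling, rose by 5.12 (SE 0.80, adjusted p 0.000712). Ifngr1, the ligand-binding receptor chain, fell by 1.66 on the log2 scale (SE 0.21, adjusted p 0.000184), while Ifngr2 had 0.16 and an adjusted p of 0.604. In the 3 genes called higher every ox-LDL library lay above every control, as in 11.6% of all genes tested. In Ifngr1 every ox-LDL library lay below every control, for which no share of all genes is given here. These genes had already passed the test on the same values, so the lack of overlap adds no separate support.

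Ifng itself had 0 counts in control replicates 1 to 4 and 5 counts in replicate 5, against 31, 168, 48, 56 and 405 counts in the ox-LDL libraries. Ox-LDL replicates 2 and 5 held the most, and these were also the ox-LDL libraries with the highest H2-Aa and H2-Ab1. Ox-LDL replicate 1 held the least Ifng and also the least H2-Aa, H2-Ab1, H2-Eb1, Cd74 and Ciita of its group. For Rfx5 the lowest library depended on the scale. It was replicate 1 in TMM CPM (7.44 against 7.62 in replicate 2) and replicate 2 in FPKM (1.69 against 3.67 in replicate 1). H2-DMa and H2-DMb1 were lowest in replicate 3, and Ciita was highest in replicate 4. T cell markers were low, with 5 of 7 at 10 counts or fewer in every library, including Cd3e, Cd3d and Cd3g, and their sum was 1.13 to 2.25 CPM in the controls and 1.25 to 1.86 CPM in the ox-LDL libraries. The source of the Ifng reads was not tested, nor was a link between Ifng and the class II levels.

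Among 5 other regulators of Ciita, 1 was called higher and 0 lower, against 9.4% and 5.35% of all genes. Irf8, a myeloid interferon regulatory factor, rose by 3.24 on the log2 scale (SE 0.40, adjusted p 0.000146 by edgeR). Irf4 had -0.18 and an adjusted p of 0.786, and Prdm1, a repressor of Ciita in plasma cells, had 0.88 and an adjusted p of 0.151. Of 3 tested cytokine genes known to act on class II, Ifng was called higher, as were 9.4% of all genes. Il10 and Tgfb1 were not called.

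Class I presentation genes were measured in the same libraries. Of 13 tested class I genes, 8 rose and 0 fell by edgeR, against 9.4% and 5.35% of all genes. The list median log2 fold change was 1.87, against 0.59 for the class II set and 0.10 for all genes. The largest increases were those of Tap1 (4.08, SE 0.43), a peptide transporter subunit, Nlrc5 (3.32, SE 0.22), the class I counterpart of Ciita, and Tapbp (2.63, SE 0.31), with adjusted p of 5.8e-05, 5e-06 and 0.00012. Psmb9, an immunoproteasome subunit, rose by 2.34 (SE 0.51, adjusted p 0.00536). H2-K1, a class I heavy chain, rose by 1.87 (SE 0.34, adjusted p 0.00169).

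Relative to its class I counterpart, Ciita was lower in the ox-LDL libraries. Nlrc5 went from 5.36 ± 1.31 to 53.8 ± 10.4 TMM CPM (SD, n = 5 each). Per Nlrc5 count, Ciita had 0.388, 0.399, 0.296, 0.374 and 0.166 counts in the controls and 0.0505, 0.136, 0.124, 0.149 and 0.124 in the ox-LDL libraries. No ox-LDL library reached the lowest control. The log2 ratio differed by -1.50, from -1.69 ± 0.53 to -3.19 ± 0.63 (SD, n = 5 each; two-sided exact permutation p = 0.007937, the smallest possible, 0.0198 after adjustment over 5 ratios). The one ratio of a chain gene to class I that was tested did not pass: H2-Ab1 per H2-K1 count was 0.0528 to 0.174 in the controls and 0.0307 to 0.142 in the ox-LDL libraries (log2 difference -0.62, p = 0.262 before and after adjustment by exact permutation).

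**Figure D3:**
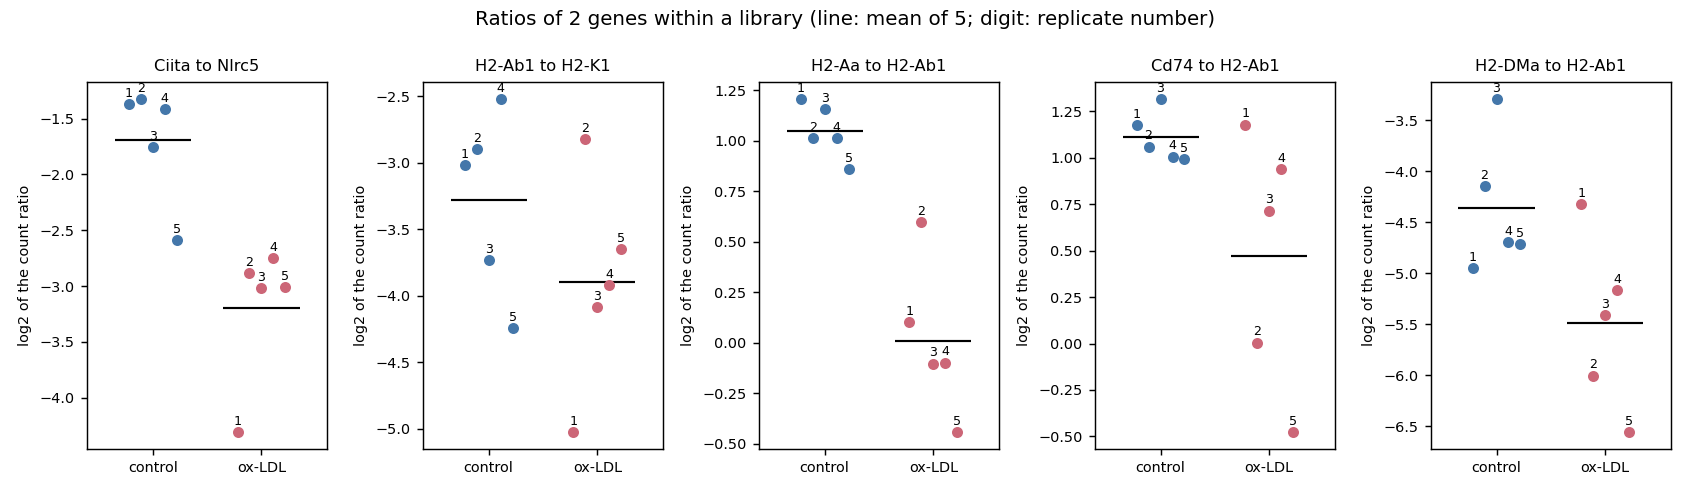
log2 ratios of the counts of 2 genes within each library, 5 control and 5 ox-LDL points per panel with a line at the mean of 5 and the replicate number beside each point. The groups do not overlap for Ciita to Nlrc5 (difference -1.50) and H2-Aa to H2-Ab1 (-1.04), and overlap in the other 3 panels.

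**Figure D4:**
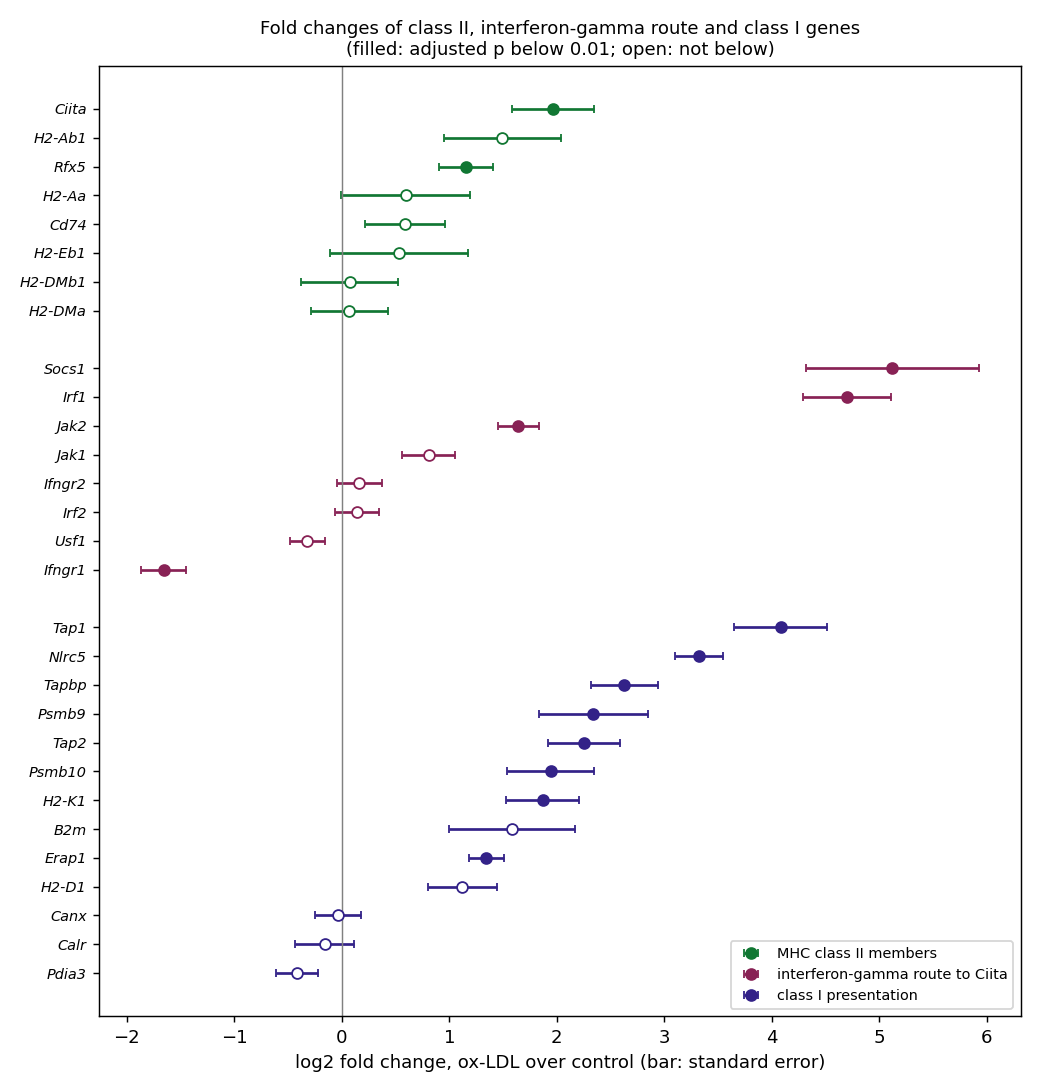
log2 fold changes of ox-LDL over control with their standard errors for the 8 class II genes, 8 interferon gamma route genes and 13 class I genes, filled where the adjusted p was below 0.01. In the class II set 2 points are filled (Ciita at 1.97 and Rfx5 at 1.16), in the interferon gamma route 4 and in class I 8.

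Of 11 tested endosomal processing genes, which prepare peptides for class II, 1 rose and 0 fell by edgeR, close to the 9.4% and 5.35% of all genes, with a median log2 fold change of -0.01. The gene called was Sppl2a, the intramembrane protease that clears the last Cd74 fragment, at 1.38 (SE 0.22, adjusted p 0.000853). Ctss, the cathepsin that trims the invariant chain, had -0.02 and an adjusted p of 0.982, Ctsl -0.32 and 0.563, and Ifi30, a lysosomal thiol reductase, 0.32 and 0.283. Lgmn, an asparaginyl endopeptidase, had -0.96 (SE 0.26) and an adjusted p of 0.0178, which missed the threshold although its groups did not overlap.

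Of 11 tested genes of class II trafficking and turnover, 1 rose and 0 fell by edgeR, again close to the 9.4% and 5.35% of all genes, with a median of -0.26. The gene called was Cd82, a tetraspanin, at 0.95 (SE 0.16, adjusted p 0.00118). March1, the ubiquitin ligase that sends class II to lysosomes, had -0.26 and an adjusted p of 0.687. Cd83, which opposes March1, had -0.34 and an adjusted p of 0.674.

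Cells other than elicited macrophages can carry class II, and in bulk samples fewer cells of a type and less RNA per cell cannot be told apart. Macrophage markers summed to 23270 to 42940 CPM in the controls and 13380 to 28380 CPM in the ox-LDL libraries, all 10 being present. Dendritic cell markers summed to 3.73 to 7.40 and 4.18 to 7.63 CPM, with 5 of 10, Flt3 and Xcr1 included, at 10 counts or fewer in every library. B cell markers summed to 45.6 to 57.7 and 12.9 to 32.5 CPM, nearly all of it Cd22, which fell by 1.18 on the log2 scale, and Pax5, Ebf1 and Blk were at 10 counts or fewer throughout. Markers of the class II high peritoneal macrophage summed to 9.51 to 25.2 CPM in the controls and 2.66 to 5.78 in the ox-LDL libraries, and Ccr2 (-4.41) and Clec10a (-3.83) were called lower by edgeR. Within each group the highest sum of these last markers was in control replicate 4 and ox-LDL replicate 2, and it rested on Retnla, singled out after its values were seen, which gave 10.2 of 25.2 CPM in the one and 5.32 of 5.78 in the other. Without Retnla, control replicate 5 was the highest control (18.66 CPM against 14.95 in replicate 4) and ox-LDL replicate 2 the lowest of its group (0.46 CPM against 1.90 to 2.71). The part of these cells in the class II levels was not tested.

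Neutrophil markers summed to 57.2 to 121 CPM in the controls and 82.7 to 230 in the ox-LDL libraries, and markers of large resident peritoneal macrophages to 64.4 to 202 and 49.0 to 276. S100a8 (2.76) and Timd4 (3.22) were called higher from these lists, and Clec9a (2.33) from that of dendritic cells. None from these lists was called lower, but their genes moved both ways. Icam2 (-1.29, adjusted p 0.014 by edgeR) was lower without overlap. Among genes with too few counts to test, Cxcr2 and Cd209a were lower and Camp and Ccl17 higher without overlap. No listed marker with a row was at 0 in all 10 libraries.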

How the data were processed

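RNA of 10 libraries, 5 control and 5 ox-LDL, was sequenced on the BGISEQ-500. The submitters' processing notes name HISAT2 2.0.5, SAMtools 1.4, StringTie 1.3.3.13 and the build mm9, and the step and strand setting that gave the counts are not given in the sources used here. The deposited gene table holds estimated counts (13.6% of its values were not whole), which were rounded. The authors also deposited per-library values whose unit is not named, and these were read as FPKM, since the count over the value and the library total came to nearly the same length in every library for genes of a single transcript, and gene lengths are the medians so implied. Groups came from the sample labels.

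The 9788 circular RNA rows were left out. Genes were filtered with filterByExpr, normalized by TMM and tested with edgeR 4.0.16 (R 4.3.3) by the quasi-likelihood test (robust), and p-values were adjusted by Benjamini-Hochberg over 12654 genes. Procedures were tested on simulated data. Ratios of counts, with 0.5 added to each, were compared by two-sided exact permutation, and ratio p-values were adjusted over 5 ratios. Marker sums were scaled by library size alone. The study's cutoffs for changed genes add an absolute log2 fold change above 2 to an adjusted p below 0.01, and this fold limit was an alternative. Gene positions are from the GENCODE annotation of mm9 and symbols and promoters from RefSeq (GRCm38.p6), the latter never mixed with mm9 positions.

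Genes named were the 9 class II genes, set partners on the route to and from them, up to 4 called genes with the largest change in each further list, and the 10 genes most like H2-Ab1. Some single genes of the lists are left out here. Members and lists were chosen with earlier results of these data known. Alternatives were DESeq2 1.42.0, limma-voom (limma 3.58.1), other normalizations, filters, rows and thresholds, the replicate number as a block, removal of the gene-length trend, limma on log2(FPKM + 1) and log2(FPKM + 0.1), and each library left out. Leaving out 3 libraries together was added after the data were seen.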

Additional observations from a re-analysis of the deposited data

Results flagged for a closer look

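In groups of 5 libraries, a library was picked out when its gap to the nearest other library took up a larger share of the group's whole range than Dixon's 95% limit. Of 40 groups examined 7 were picked out, and chance alone gives about 2. These 7 were not weighed further.

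Ox-LDL replicate 2 was the highest library for H2-DMb1 (170.8 against 55.4 TMM CPM in the next, gap share 0.818), H2-Eb1 (18.5 against 5.73, 0.72) and H2-DMa (5.57 against 2.93, 0.711). The same library was the highest in the summed markers of class II high peritoneal macrophages (5.78 against 3.23 CPM, 0.819), where Retnla gave 5.32 of the 5.78 CPM and the other markers summed to the lowest value of the group (0.46 CPM), and of dendritic cells (7.63 against 5.17 CPM, 0.713). Control replicate 5 was the lowest control for Rfx5 (3.65 against 5.00 TMM CPM, 0.755). Ox-LDL replicate 1 had the lowest log2 ratio of Ciita to Nlrc5 (-4.31 against -3.02, 0.828).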

How the results depend on the processing

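Of the 8 class II genes 2 were called higher and 0 lower. The count of genes called lower was 0 in all 25 alternatives. The count called higher was 1 with limma-voom (Rfx5) and with library size alone (Ciita), and 0 with a log2 fold change above 2 required, with limma on either FPKM scale, where Ciita did not pass the filter, and without control replicates 1 and 4 and ox-LDL replicate 2, added after the data were seen. Leaving out 1 library gave 1 to 2. With the replicate number as a replicate block 1 was called, Ciita (1.86, adjusted p 0.00922), while Rfx5 had 1.10 and 0.027. Deviations of same-numbered libraries correlated at -0.26 to 0.42. Libraries with different numbers were not compared in this way, so whether same-numbered libraries share an origin was not tested.

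Directions reversed in 4 genes, none of them called. H2-Aa had -0.06 on both FPKM scales and -0.32 to 0.85 with 1 library left out. H2-Eb1 had -0.19 with limma-voom, -0.10 and -0.24 with log2(FPKM + 1) and log2(FPKM + 0.1), -0.02 without the 3 libraries, and -0.45 to 0.82 with 1 left out. H2-DMa had -0.02 with limma-voom, -0.21 with library size alone, -0.09 with upper-quartile factors, -0.21 and -0.36 on the FPKM scales, -0.22 without the 3 libraries and -0.30 to 0.21 with 1 left out. H2-DMb1 had -0.20, -0.31 and -0.10 in those first 3 settings, -0.23 with the block, -0.02 with the length trend removed, -0.39 and -0.40 on the FPKM scales, -0.35 without the 3 libraries and -0.69 to 0.26 with 1 left out. The causes were not tested.

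With 1 library left out, or from FPKM, the difference in log2 ratio was -1.73 to -1.22 for Ciita to Nlrc5 and -1.18 to -0.92 for H2-Aa to H2-Ab1, with adjusted p of at most 0.0397, and -0.89 to -0.34 for H2-Ab1 to H2-K1. It was -0.81 to -0.40 for Cd74 to H2-Ab1 and -1.42 to -0.87 for H2-DMa to H2-Ab1, and both passed 0.05 without ox-LDL replicate 1 (adjusted p 0.0132 each).

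Over all genes, calls went from 1189 higher and 677 lower to 1765 and 1244 with DESeq2, 1755 and 1502 without ox-LDL replicate 2, 1648 and 1227 with the length trend removed, 605 and 244 with the fold limit, 2045 and 1320 at an adjusted p below 0.05 and 704 and 583 with library size alone. Depth limited H2-Oa, H2-Ob and H2-Eb2, which had at most 49, 23 and 3 counts.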
